A study of Mus musculus with 10 samples.

Results

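Glutamate is the main excitatory transmitter of the brain, and 34 genes of its synapse were followed in the brains of mice treated on the skin with Aldara cream. The list holds the subunits of the AMPA, NMDA and kainate receptors, a delta receptor, the metabotropic receptors, the vesicular glutamate transporters, a pair of AMPA receptor auxiliary subunits and the postsynaptic scaffolds Dlg4, Homer1 and Shank1 to Shank3. Members were found by gene symbol, and a gene with several probesets was read from the probeset with the highest mean over the 10 arrays. Of the 34 genes, 33 had a probeset among the 19938 genes tested, none of these probesets was shared with another gene, and Grin1, the obligatory subunit of NMDA receptors, was not analysed here.

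AMPA and kainate receptors are ion channels that carry fast excitatory current, and NMDA receptors are channels that open when glutamate binds while the membrane is depolarised, which lets in calcium and makes them central to synaptic plasticity. Metabotropic receptors signal through G proteins, some at the postsynaptic membrane and others on the terminal, where they restrain release. Vesicular transporters fill synaptic vesicles with glutamate, and scaffold proteins hold the receptors in the postsynaptic density opposite the terminal.

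Female wild-type C57BL/6 mice, 6 to 8 weeks old, received 80 mg of Aldara cream, which contains 5% imiquimod, a Toll-like receptor agonist, or the same amount of an aqueous control cream. Cream was put on shaved skin of the back every 24 h for 5 applications, and whole brains were taken 24 h after the last one, after perfusion. Expression was measured on Affymetrix Mouse Gene 1.0 ST arrays, with 1 array per mouse and 5 mice in each group. Values are on the log2 scale after RMA, so a difference of group means (Aldara minus control) is a log2 fold change, and a gene was called lower or higher at a limma adjusted p under 0.05, with the Benjamini-Hochberg adjustment over all 23410 probesets tested. The control cream is not the vehicle of Aldara, so imiquimod and the other components of the cream cannot be told apart. In whole brain, fewer cells of a type and less RNA per cell cannot be told apart.

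Pairs of arrays correlated at 0.995 to 0.999 within the Aldara-treated group and at 0.998 to 0.999 within the control group, against 0.980 to 0.988 between the groups. Array medians were 8.16 to 8.19 in Aldara-treated brains and 8.10 to 8.14 in control brains. Pan-neuronal markers were well represented, with a mean log2 value over 14 genes of 11.40 to 11.45 in Aldara-treated brains and 11.51 to 11.58 in control brains.

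Expression of glutamatergic synapse genes was lower in Aldara-treated mice than in control mice. By limma, 29 of the 33 genes measured were lower and 0 were higher, where 22.4% of all genes were lower and 11.8% were higher. The 4 genes that were not called were Grin2d, Grm6, Grm7 and Slc17a6. In 24 of the 33, every Aldara-treated brain lay below every control brain, a pattern seen in 16.4% of all genes, and the reverse held for 0 of the 33, where it held for 9.93% of all genes. The differences were small, with a median of -0.18 on the log2 scale over the 33 genes and of -0.05 over all genes. The largest was that of Shank1, 1.33-fold lower in Aldara-treated brains.

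The list consists mostly of well-expressed genes, and 29 of the 33 lay at or above the median level of all genes. Among genes at or above that level 33.3% were lower, and 26.9% were lower with no overlap between the groups. A decrease of at least 1.2-fold that passed the test was seen in 7 of the 33 genes and in 2.20% of all genes, and one of at least 1.1-fold in 24 of the 33 and in 15.0% of all genes. Across the 33 genes, the mean level and the difference were hardly related (Pearson r = -0.13, Spearman rho = -0.09, all measured on the same arrays).

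**Figure D1:**
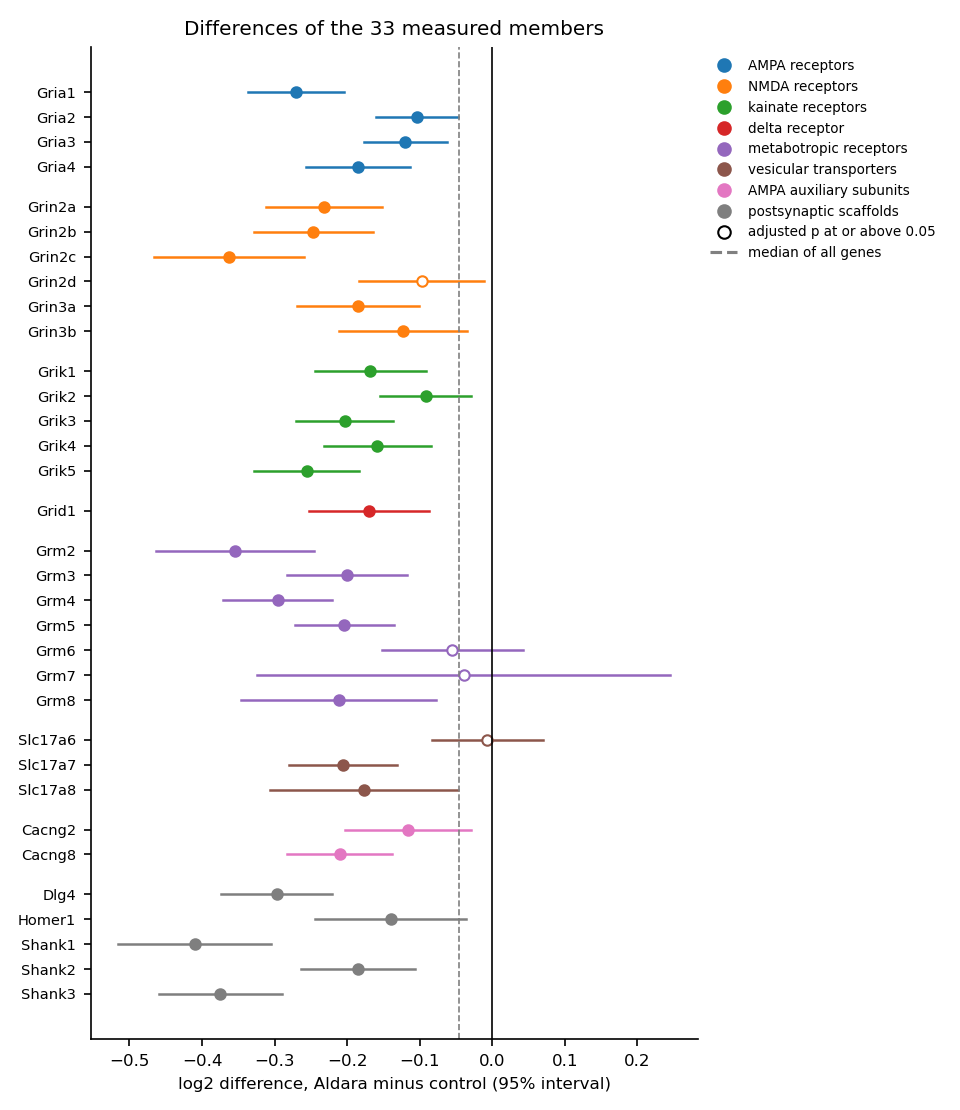
Log2 difference (Aldara minus control) with its 95% interval for each of the 33 genes, grouped by role, with 5 brains per group. Filled points passed the limma test, open points did not, and the dashed line is the median of all genes, -0.05. All points lie left of 0, and Shank1 at -0.41 is the farthest.

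The AMPA receptor subunits were lower as a group, with 4 of 4 called and a median of -0.15. Gria1, which encodes GluA1, a subunit whose delivery to synapses accompanies potentiation, had 11.39, 11.36, 11.42, 11.41 and 11.31 in the 5 Aldara-treated brains, against 11.64, 11.63, 11.63, 11.63 and 11.71 in the 5 control brains. The groups were far apart relative to their spread, with the highest value in control replicate 5. Expression of Gria1 fell by 17.1% (difference -0.27, SE 0.03, adjusted p = 3.4e-05).

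Gria2 encodes GluA2, the subunit that keeps AMPA receptors nearly impermeable to calcium. It had 11.86, 11.79, 11.85, 11.80 and 11.83 in Aldara-treated brains, against 11.93, 11.92, 11.95, 11.90 and 11.95 in control brains. There was no overlap, although the decrease was small (difference -0.10, SE 0.03, adjusted p = 0.0091). Gria3, the GluA3 subunit, had 11.52, 11.48, 11.48, 11.46 and 11.47 in Aldara-treated brains and 11.64, 11.57, 11.57, 11.63 and 11.62 in control brains. These groups did not overlap either, and the difference was -0.12 (SE 0.03, adjusted p = 0.004).

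Gria4, the GluA4 subunit found in many interneurons and in the cerebellum, had 10.98, 10.93, 10.86, 10.96 and 10.96 in Aldara-treated brains, against 11.16, 11.14, 11.17, 11.07 and 11.07 in control brains. All Aldara-treated brains were below the lowest control brain (difference -0.18, SE 0.03, adjusted p = 0.0011).

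Both AMPA receptor auxiliary subunits on the list, TARP proteins that carry the receptors to the membrane and slow their gating, were also lower. Cacng8, TARP gamma-8, which is abundant in the hippocampus, had 9.76, 9.86, 9.78, 9.79 and 9.80 in Aldara-treated brains, against 9.95, 10.01, 9.97, 10.02 and 10.09 in control brains. The groups did not overlap (difference -0.21, SE 0.03, adjusted p = 0.00046). Cacng2, which encodes stargazin, had 10.56, 10.53, 10.64, 10.45 and 10.45 in Aldara-treated brains and 10.70, 10.60, 10.66, 10.62 and 10.64 in control brains. Aldara replicate 3 reached into the control range, and the difference of -0.12 (SE 0.04, adjusted p = 0.041) was close to the threshold. It did not pass without any one of control replicates 1, 3, 4 and 5 or of Aldara replicates 1, 2, 4 and 5 (adjusted p of 0.052 to 0.099). A second probeset of Cacng2 was lower by a larger margin with no overlap (difference -0.18, SE 0.03, adjusted p = 0.00083).

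Among NMDA receptor subunits, 5 of the 6 measured were lower, and the median difference was -0.21. Grin2c, which encodes GluN2C, the subunit typical of mature cerebellar granule cells, showed the largest decrease of any receptor subunit. It had 9.03, 9.07, 9.01, 9.13 and 8.88 in Aldara-treated brains, against 9.43, 9.31, 9.47, 9.40 and 9.32 in control brains. Aldara replicate 5 was the lowest of all, and the groups were separate (expression fell by 22.2%, difference -0.36, SE 0.05, adjusted p = 0.00011).

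Grin2a and Grin2b encode GluN2A and GluN2B, the main GluN2 subunits of the forebrain, of which GluN2B predominates early in life. Grin2a had 10.96, 10.90, 10.99, 10.85 and 10.84 in Aldara-treated brains, against 11.18, 11.07, 11.14, 11.13 and 11.18 in control brains. Grin2b had 11.41, 11.45, 11.47, 11.43 and 11.28 in Aldara-treated brains, against 11.64, 11.63, 11.65, 11.62 and 11.73 in control brains. Neither gene overlapped between the groups, and the decreases were of similar size, with a difference of -0.23 for Grin2a (SE 0.04, adjusted p = 0.00047) and of -0.25 for Grin2b (SE 0.04, adjusted p = 0.00038).

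Grin2d, the GluN2D subunit of diencephalon, brainstem and some interneurons, had 7.90, 7.78, 7.83, 7.75 and 7.82 in Aldara-treated brains, against 7.91, 7.82, 7.93, 7.89 and 8.0 in control brains. The groups overlapped, and the difference of -0.10 (SE 0.04) did not pass the test (adjusted p = 0.077). It passed without control replicate 2 (adjusted p = 0.034) or without Aldara replicate 1 (adjusted p = 0.038). The call of Grin2d also depended on the scaling. It passed by limma with quantile normalisation (difference -0.15, adjusted p = 0.0042) and with arrays centred on a common median (-0.15, adjusted p = 0.0051). With a constant added to the Aldara arrays, so that the median probeset did not differ, Grin2d did not pass (-0.06, adjusted p = 0.34). The GluN3 subunits, which lower the calcium permeability of NMDA receptors, were both called, Grin3a with a difference of -0.18 and no overlap (adjusted p = 0.0029) and Grin3b with a difference of -0.12 and overlap (adjusted p = 0.036). The call of Grin3b was lost without any one of control replicates 1, 2 and 4 or of Aldara replicates 1, 2, 4 and 5 (adjusted p of 0.052 to 0.072).

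**Figure D2:**
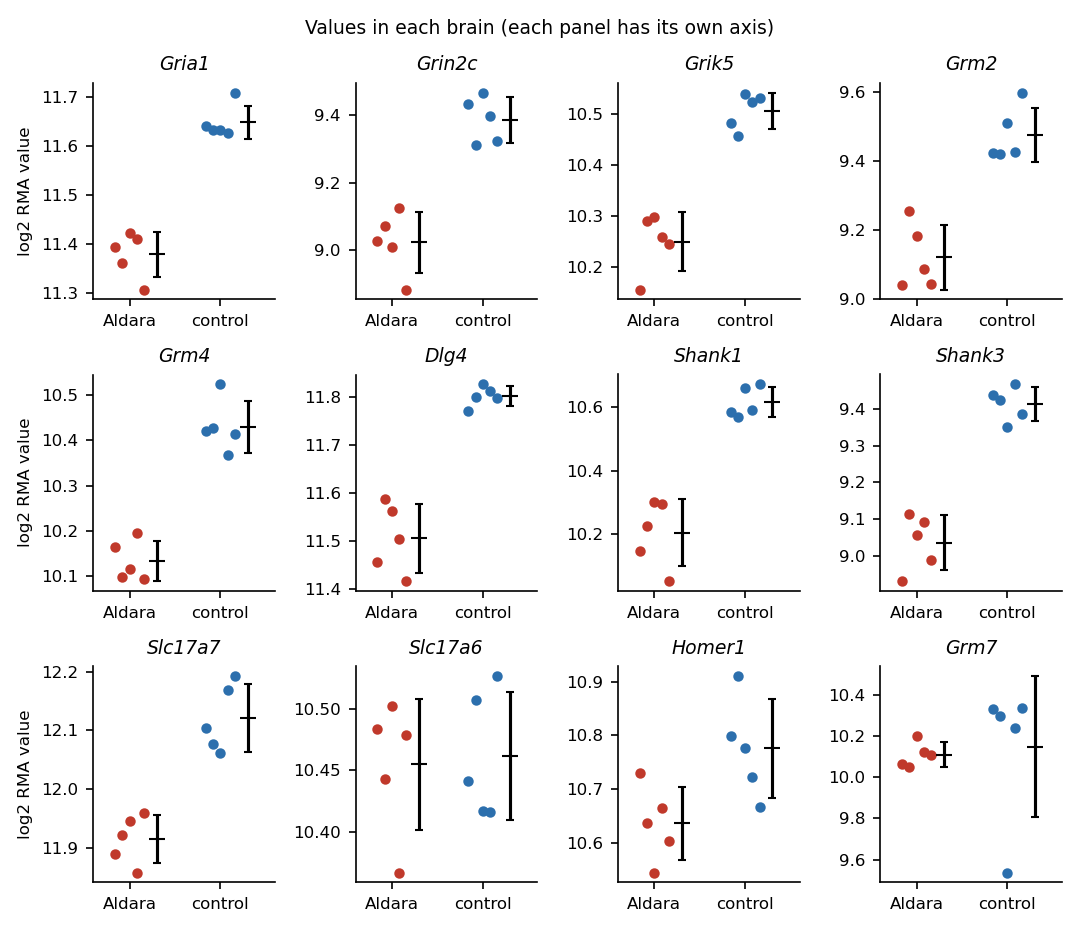
Log2 RMA value in each brain for 12 of the genes, with each panel on its own axis, points for single brains, and a bar for the mean and SD of 5 brains beside them. Aldara-treated and control brains are separate for Gria1, Grin2c, Grik5, Grm2, Grm4, Dlg4, Shank1, Shank3 and Slc17a7, and overlap for Slc17a6, Homer1 and Grm7, where control replicate 3 stands alone at 9.54.

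Of the kainate receptor subunits, 5 of 5 were lower with no overlap between the groups, and the median was -0.17. Grik5, the GluK5 subunit, which forms channels only together with GluK1, GluK2 or GluK3, had 10.16, 10.29, 10.30, 10.26 and 10.25 in Aldara-treated brains, against 10.48, 10.46, 10.54, 10.52 and 10.53 in control brains. It showed the largest decrease of the 5 and fell by 16.2% (difference -0.26, SE 0.03, adjusted p = 0.0001). Grik4 encodes GluK4, the other subunit that needs GluK1, GluK2 or GluK3, and was lower by a smaller amount (difference -0.16, adjusted p = 0.0034).

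Grik3, the GluK3 subunit, had 9.741, 9.827, 9.745, 9.820 and 9.785 in Aldara-treated brains, against 10.002, 9.909, 10.005, 10.005 and 10.013 in control brains. Control replicate 2 was the control brain nearest to the Aldara-treated ones (difference -0.20, SE 0.03, adjusted p = 0.00035). Grik1, the GluK1 subunit, had 8.13, 8.17, 8.21, 8.15 and 8.25 in Aldara-treated brains, against 8.31, 8.45, 8.32, 8.33 and 8.34 in control brains. The gap between the groups was narrow for Grik1 (0.05), and narrower still for Grik4 (0.015) and Grik2 (0.009). For Grik1, control replicate 2 was the highest brain (difference -0.17, SE 0.03, adjusted p = 0.0029).

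Grik2, which encodes the widespread GluK2 subunit, had the smallest difference of the kainate receptor subunits, -0.09 (SE 0.03, adjusted p = 0.028). It did not pass without any one of control replicates 1, 3 and 5 or Aldara replicate 3 (adjusted p of 0.059 to 0.066). Grid1 encodes GluD1, a delta receptor that binds cerebellins across the synapse rather than working as a classical glutamate channel. It had 9.69, 9.68, 9.73, 9.69 and 9.65 in Aldara-treated brains, against 9.75, 9.79, 9.90, 9.91 and 9.92 in control brains. The Aldara-treated brains were tightly grouped below the more variable control brains (difference -0.17, SE 0.04, adjusted p = 0.0046).

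Of the metabotropic receptors, 5 of 7 were lower, with no difference called in Grm6 and Grm7, and the median was -0.20. Grm2 and Grm3 encode the group II receptors mGlu2 and mGlu3, which lower cyclic AMP, mGlu2 mainly on neurons and mGlu3 also on astrocytes. Grm2 had 9.04, 9.26, 9.18, 9.09 and 9.04 in Aldara-treated brains, against 9.42, 9.42, 9.51, 9.43 and 9.60 in control brains. The groups were clearly separate (expression fell by 21.8%, difference -0.35, SE 0.05, adjusted p = 0.00021). Grm3 had 11.33, 11.36, 11.35, 11.35 and 11.19 in Aldara-treated brains, against 11.57, 11.46, 11.54, 11.52 and 11.49 in control brains. Aldara replicate 5 was well below the other treated brains, and the groups did not overlap (difference -0.20, SE 0.04, adjusted p = 0.0016).

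Grm4 encodes mGlu4, a group III receptor of presynaptic terminals that is prominent in the cerebellum. It had 10.17, 10.10, 10.12, 10.19 and 10.09 in Aldara-treated brains, against 10.42, 10.43, 10.52, 10.37 and 10.41 in control brains. Both groups were tight and far apart (expression fell by 18.5%, difference -0.30, SE 0.03, adjusted p = 4.7e-05). Grm5, the postsynaptic group I receptor mGlu5, had 11.43, 11.48, 11.48, 11.45 and 11.35 in Aldara-treated brains, against 11.62, 11.64, 11.60, 11.67 and 11.67 in control brains. These values did not overlap (difference -0.20, SE 0.03, adjusted p = 0.00038).

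The other group III receptors gave less uniform results. Grm7, a presynaptic receptor of the active zone, had 10.06, 10.05, 10.20, 10.12 and 10.11 in Aldara-treated brains, against 10.33, 10.30, 9.54, 10.24 and 10.34 in control brains. Control replicate 3 lay far below all other brains, and 4 of the 5 control brains lay above every Aldara-treated one. The difference was -0.04 (SE 0.13, adjusted p = 0.84) with all arrays and -0.19 (adjusted p = 0.0031) without control replicate 3. Grm8 was lower, with overlap of the groups and scattered control brains (difference -0.21, SE 0.06, adjusted p = 0.02). By an unpaired t-test Grm8 did not pass (adjusted p = 0.052). Grin3b, Cacng2, Homer1 and Slc17a8, all called by limma, did not pass that t-test either (adjusted p of 0.056 to 0.081). Grm6, best known from retinal bipolar cells, was dim and was not called (difference -0.05, SE 0.04, adjusted p = 0.37).

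The vesicular transporters differed among themselves. Slc17a7 encodes VGLUT1, the transporter of cortical, hippocampal and cerebellar granule cell terminals, Slc17a6 encodes VGLUT2, which prevails in thalamus, hypothalamus and brainstem, and Slc17a8 encodes VGLUT3, found in scattered neurons that mostly release other transmitters too. As the shifts of Slc17a7 and Slc17a6 differed, the 250 bases before the transcription start of each gene are given from RefSeq (GRCm38.p6, both on the plus strand), Slc17a7 at chr7:45163671-45163920 and Slc17a6 at chr7:51621580-51621829. Capitals mark the GC box letters GGGCGG, searched on both strands, so that CCGCCC is the same box on the other strand.

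Slc17a7: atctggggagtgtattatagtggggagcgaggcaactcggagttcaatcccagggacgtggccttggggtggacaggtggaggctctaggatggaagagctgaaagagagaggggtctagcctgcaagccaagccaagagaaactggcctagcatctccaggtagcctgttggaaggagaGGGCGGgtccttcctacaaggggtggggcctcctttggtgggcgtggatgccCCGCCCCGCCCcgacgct

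Slc17a6: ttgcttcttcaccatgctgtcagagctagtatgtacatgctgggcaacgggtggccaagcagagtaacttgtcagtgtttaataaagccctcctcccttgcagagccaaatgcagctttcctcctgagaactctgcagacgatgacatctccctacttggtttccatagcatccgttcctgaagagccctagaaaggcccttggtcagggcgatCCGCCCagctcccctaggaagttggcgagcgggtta

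The box occurred 3 times before Slc17a7, including an overlapping pair next to the start, and 1 time in the window printed for Slc17a6, the more upstream of its 2 windows, where 32.7% of the 32851 windows of this length in the mouse table held at least 1. The other window of Slc17a6, at chr7:51624387-51624636, held 0. RefSeq windows were matched for 22 of the 33 genes measured, and 13 of their 30 windows (43.3%) held the box. These letters are a description of the sequence and not a site, and they were picked after other motifs had been looked at.

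Slc17a7 had 11.89, 11.92, 11.94, 11.86 and 11.96 in Aldara-treated brains, against 12.10, 12.08, 12.06, 12.17 and 12.19 in control brains. All treated brains were below all control brains, and expression fell by 13.3% (difference -0.21, SE 0.03, adjusted p = 0.00065). Slc17a6 had 10.48, 10.44, 10.50, 10.37 and 10.48 in Aldara-treated brains, against 10.44, 10.51, 10.42, 10.42 and 10.53 in control brains. Here the groups were fully mixed, with a difference of -0.01 (SE 0.04, 95% interval -0.08 to 0.07, adjusted p = 0.90).

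Slc17a8 was dim, with 7.108, 7.023, 7.209, 7.086 and 6.997 in Aldara-treated brains, against 7.044, 7.325, 7.294, 7.289 and 7.357 in control brains. Control replicate 1 lay inside the treated range and the other control brains above it (difference -0.18, SE 0.06, adjusted p = 0.038). Its call was lost without any one of control replicates 2 to 5 or of Aldara replicates 1, 2, 4 and 5 (adjusted p of 0.059 to 0.087).

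The postsynaptic scaffolds had the lowest median of the roles with more than 1 gene, -0.30, and 5 of 5 were lower. Shank1 and Shank3 encode large proteins deep in the postsynaptic density that connect receptor complexes with actin. Shank1 had 10.15, 10.23, 10.30, 10.30 and 10.05 in Aldara-treated brains, against 10.58, 10.57, 10.66, 10.59 and 10.67 in control brains. The groups were separate, with a gap of 0.27 between the highest treated and the lowest control brain (expression fell by 24.8%, difference -0.41, SE 0.05, adjusted p = 4.9e-05). Shank3 had 8.93, 9.11, 9.06, 9.09 and 8.99 in Aldara-treated brains, against 9.44, 9.42, 9.35, 9.47 and 9.38 in control brains. It was likewise separate and fell by 22.9% (difference -0.37, SE 0.04, adjusted p = 1.7e-05).

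Dlg4 encodes PSD-95, the scaffold that anchors NMDA receptors and, through TARPs, AMPA receptors. It had 11.46, 11.59, 11.56, 11.50 and 11.42 in Aldara-treated brains, against 11.77, 11.80, 11.83, 11.81 and 11.80 in control brains. The control brains were nearly level and the treated brains all lay below them (expression fell by 18.6%, difference -0.30, SE 0.03, adjusted p = 5.1e-05). Shank2 had a difference of -0.18 with no overlap (adjusted p = 0.0018), and its other probesets were also lower, by differences of -0.26 (adjusted p = 0.0001) and -0.16 (adjusted p = 0.021).

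Homer1 encodes proteins that link group I metabotropic receptors to Shank, along with a short form induced by activity, which were not told apart here. It was lower with overlap (difference -0.14, SE 0.05, adjusted p = 0.04), and the call was lost without any one of control replicates 1 to 3 or of Aldara replicates 2 to 5 (adjusted p of 0.058 to 0.093).

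**Figure D3:**
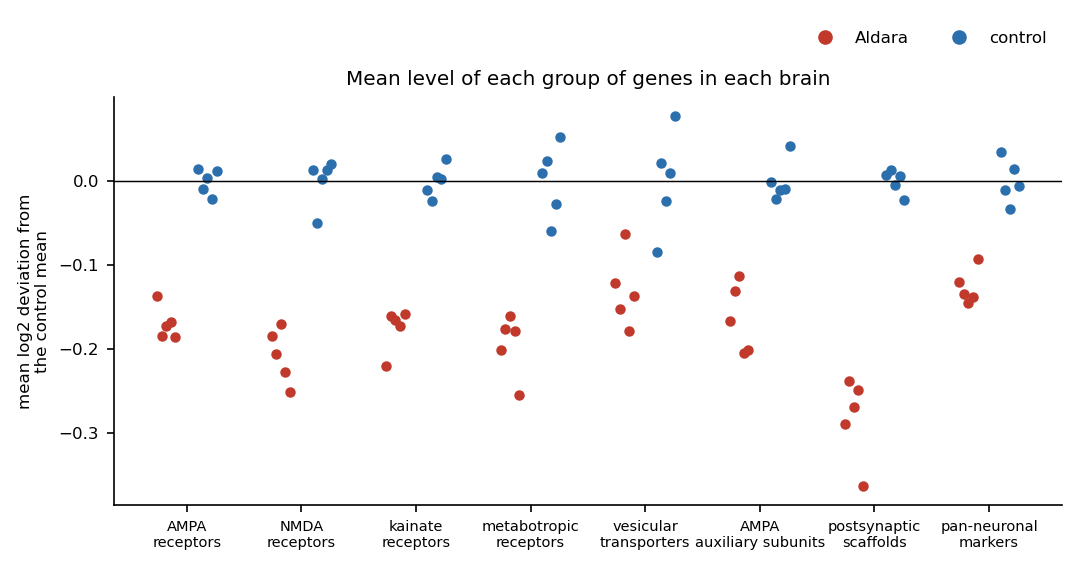
Mean over the genes of each role of the log2 deviation from the control mean, 1 point per brain, with the pan-neuronal markers on the right. The scaffolds of Aldara replicate 5 are the lowest point at -0.36, and Aldara-treated and control brains overlap in the vesicular transporters alone.

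Averaged by role in each brain, AMPA, NMDA, kainate and metabotropic receptors gave 4 similar shifts with no overlap between the groups. Mean deviations from the control mean were -0.19 to -0.14 in Aldara-treated brains and -0.02 to 0.01 in control brains for AMPA receptors. NMDA receptors gave -0.25 to -0.17 in Aldara-treated brains and -0.05 to 0.02 in control brains. Kainate receptors gave -0.22 to -0.16 in Aldara-treated brains and -0.02 to 0.03 in control brains, and metabotropic receptors gave -0.25 to -0.16 in Aldara-treated brains and -0.06 to 0.05 in control brains. The ranges of the treated brains overlapped among the 4 receptor classes, and no test between classes was made. Aldara replicate 5 had the lowest mean in NMDA receptors, metabotropic receptors and scaffolds.

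To ask whether partners within a role moved by the same amount, the log2 difference of 2 genes was taken within each brain for 8 pairs and compared between the groups with a two-sided exact permutation test, adjusted over the 8 pairs. Such a difference does not change when a constant is added to all values of an array, but it can change under other scalings. The 8 pairs were chosen with earlier results of these data known, so the adjustment does not count pairs that were passed over. Slc17a7 minus Slc17a6 was 1.41, 1.48, 1.44, 1.49 and 1.48 in Aldara-treated brains, against 1.66, 1.57, 1.64, 1.75 and 1.67 in control brains. The groups did not overlap, and Slc17a7 was lower relative to Slc17a6 in Aldara-treated brains (difference -0.20, SE 0.03, exact permutation p = 0.0079, adjusted 0.032).

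Gria1 minus Gria2 was -0.47, -0.43, -0.43, -0.39 and -0.53 in Aldara-treated brains, against -0.29, -0.29, -0.31, -0.27 and -0.25 in control brains. These groups did not overlap, and Gria1 was lower relative to Gria2 in Aldara-treated brains (difference -0.17, SE 0.03, exact permutation p = 0.0079, adjusted 0.032). With 5 brains against 5, 0.0079 is the smallest p this test can give. Grin2c minus Grin2d was 1.12, 1.30, 1.18, 1.38 and 1.07 in Aldara-treated brains, against 1.52, 1.49, 1.53, 1.51 and 1.32 in control brains. Aldara replicate 4 and control replicate 5 overlapped, and the difference was -0.27 (SE 0.07, exact permutation p = 0.016, adjusted 0.032). With quantile normalisation the difference was -0.22 (exact permutation test, adjusted p = 0.048), and Grin2d was dim.

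Grm3 minus Grm2 was 2.29, 2.11, 2.16, 2.26 and 2.15 in Aldara-treated brains, against 2.15, 2.04, 2.03, 2.09 and 1.89 in control brains. The groups overlapped at control replicate 1, and Grm3 was higher relative to Grm2 in Aldara-treated brains (difference 0.15, SE 0.06, exact permutation p = 0.016, adjusted 0.032). Homer1 minus Dlg4 was higher by 0.16 (SE 0.07) without passing after adjustment (exact permutation p = 0.048, adjusted 0.076). The other 3 pairs did not pass: Gria3 minus Gria4 differed by 0.07 (SE 0.04), Grin2a minus Grin2b by 0.02 (SE 0.03) and Shank3 minus Shank1 by 0.04 (SE 0.05), with exact permutation p-values of 0.14, 0.64 and 0.52. Without any one of control replicates 2, 3 and 4 or Aldara replicates 1, 3 and 5, 0 pairs passed after adjustment, and without any of the other arrays 3 did.

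**Figure D4:**
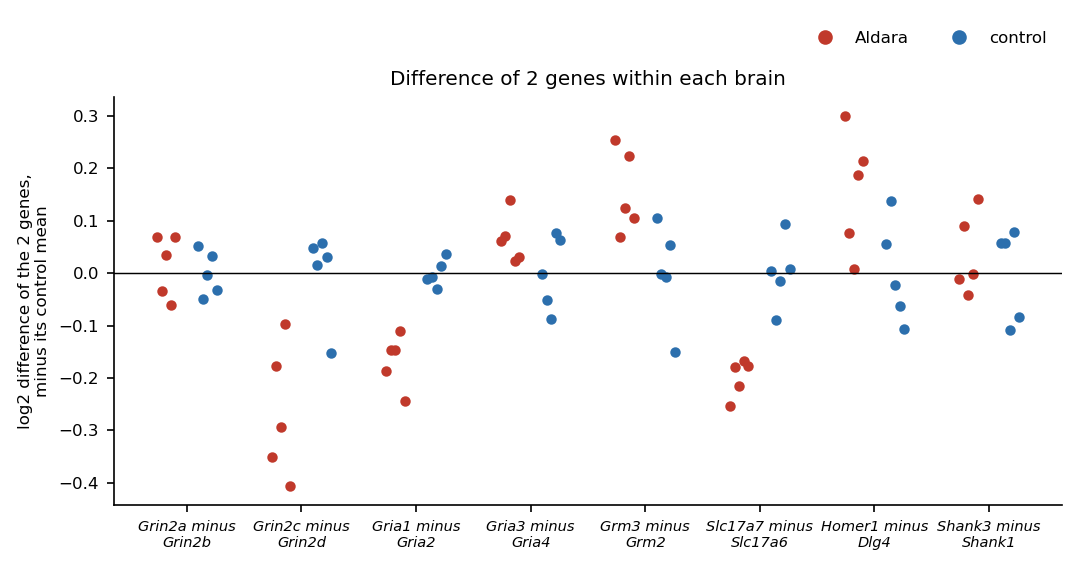
Log2 difference of 2 genes within each brain, set to 0 at its control mean, for the 8 pairs, 1 point per brain. Aldara-treated and control brains are separate for Gria1 minus Gria2 (group means differ by -0.17) and Slc17a7 minus Slc17a6 (group means differ by -0.20) and overlap in the others.

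Most of the pan-neuronal markers were lower too, and the calls of single genes depended on what the arrays were scaled to. Of 14 pan-neuronal markers, 11 (78.6%) were lower and 0 higher, against 22.4% and 11.8% of all genes, and their median was -0.10. The 3 not called were the neurofilament genes Nefl (difference -0.09), Nefm (-0.009) and Nefh (-0.005). The summed linear signal of the 14 markers was 52381 to 53545 in Aldara-treated brains, against 56430 to 58147 in control brains. When every array was shifted to the same mean of these markers, an alternative chosen after the data were seen, 8 of the 33 genes were lower and 1 was higher, where 3.09% of all genes were lower and 36.1% were higher. The median of all genes was then 0.08 and that of the 33 genes -0.06. The 8 that were still lower, all without overlap, were Gria1, Grin2c, Grik5, Grm2, Grm4, Dlg4, Shank1 and Shank3. Slc17a6 was the gene called higher, with a difference of 0.12 (adjusted p = 0.025) and overlapping groups. In each brain, the mean deviation of the 33 genes less that of the pan-neuronal markers was -0.14 to -0.02 in Aldara-treated brains and -0.04 to 0.03 in control brains, so that the groups overlapped.

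Other scalings moved the split of all genes as well. With arrays centred on a common median, 30 of the 33 genes were lower and 0 higher, against 43.4% of all genes lower and 9.51% higher. With a constant added to the Aldara arrays so that the median probeset did not differ, 22 were lower and 0 higher, against 12.6% of all genes lower and 15.4% higher.

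Most genes that act beside these receptors were also lower, where 22.4% of all genes were lower and 11.8% were higher. Of 22 other postsynaptic scaffolds and enzymes, 20 were lower and 0 higher, with a median of -0.17. Among them were Homer2 (difference -0.43, SE 0.04), Dlgap3 (-0.41, SE 0.05) and Dlgap2 (-0.39, SE 0.04), all scaffold genes, and Akap5 (-0.32, SE 0.03), which anchors protein kinase A at the synapse. Of 15 further auxiliary subunits of glutamate receptors and pentraxins, 10 were lower and 0 higher, with a median of -0.19. They included Neto1 (-0.23, SE 0.03), an auxiliary subunit of kainate receptors, Cacng7 (-0.23, SE 0.03) and Cacng4 (-0.19, SE 0.03), both TARP genes, and Nptx1 (-0.21, SE 0.03), a secreted pentraxin that clusters AMPA receptors.

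Genes of glutamate uptake and metabolism were mixed, with 7 of 14 genes (50.0%) lower and 3 (21.4%) higher, against 22.4% and 11.8% of all genes. Slc1a2, the astrocytic transporter GLT-1 that removes most synaptic glutamate, had 12.14, 12.15, 12.21, 12.23 and 12.08 in Aldara-treated brains, against 12.72, 12.71, 12.68, 12.80 and 12.77 in control brains. The groups were far apart, and this gene is also one of the astrocyte markers (-0.57, SE 0.04, adjusted p = 2.1e-07). The glial transporter Slc1a3 (-0.25, SE 0.03) and glutamine synthetase, Glul (-0.26, SE 0.03), were lower too, and Slc7a11, the cystine-glutamate exchanger that releases glutamate, was higher (0.65, SE 0.07).

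Most genes of inhibitory synapses were lower as well. Of 17 genes of GABA receptors, transport and synthesis and the scaffold gephyrin, 14 were lower and 0 higher, with a median of -0.16, against -0.18 for the 33 glutamatergic genes, and the difference between the lists was not tested. Slc6a11, a glial GABA transporter, differed by -0.55 (SE 0.04), and the receptor subunits Gabrg1, Gabra3 and Gabbr2 by -0.39, -0.23 and -0.18. Of 15 activity-induced genes 6 (40.0%) were lower and 0 higher, against 22.4% and 11.8% of all genes. Among genes at or above the median level 33.3% were lower, but several of the 15, such as Ier2, Bdnf and Fos, lay below that level. The mean deviation of the 15 genes overlapped between the groups, at -0.34 to -0.17 in Aldara-treated brains and -0.20 to 0.10 in control brains. The 6 lower genes were Npas4 (-0.64, SE 0.09), Dusp1 (-0.52, SE 0.10), Arc (-0.46, SE 0.12), Btg2 (-0.42, SE 0.05), Egr4 (-0.23, SE 0.05) and Egr3 (-0.22, SE 0.03), while Fos (-0.25), Bdnf (-0.00286) and Fosb (0.06) were among the 9 that did not pass.

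**Figure D5:**
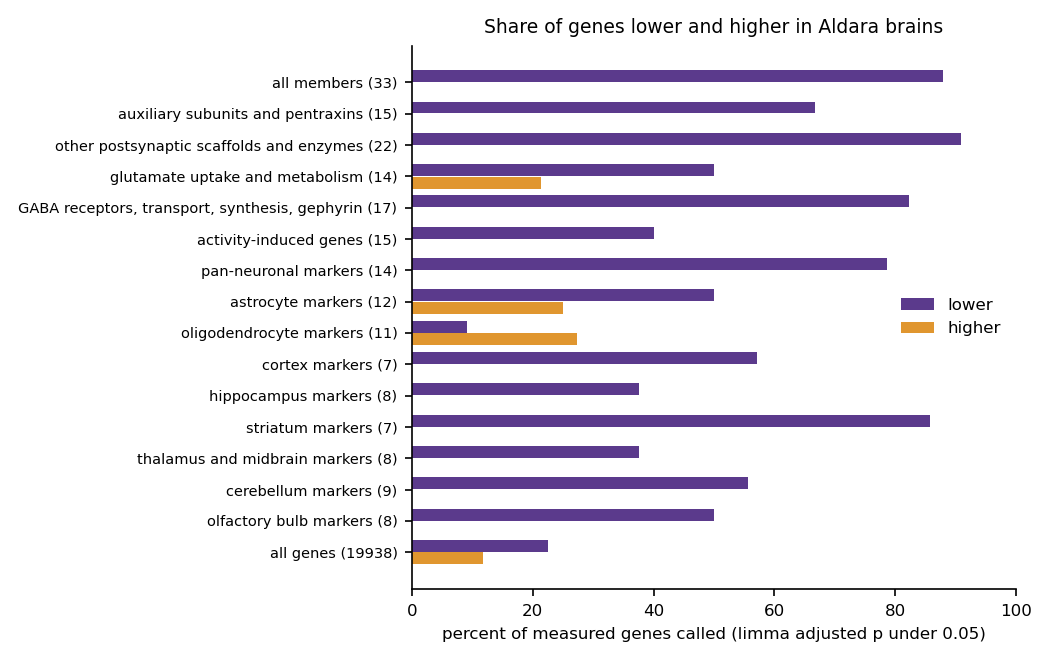
Percent of the measured genes of each list that were lower (purple) or higher (orange) in Aldara-treated brains by limma, with the number of genes in brackets and all genes at the bottom. The 33 glutamatergic genes stand at 87.9% lower and 0% higher, against 22.4% and 11.8% of all genes.

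Markers of other cells gave the following values beside these genes. Of all genes, 11.8% were higher and 22.4% were lower. Of 11 microglia and macrophage markers 9 were higher and 1 lower, with a summed linear signal of 9902 to 12213 in Aldara-treated brains, against 3654 to 3945 in control brains. Of 11 other leukocyte markers 6 were higher and 1 lower (summed signal 2238 to 2660 in Aldara-treated brains, against 1034 to 1120 in control brains), and of 10 endothelial and mural markers 6 were higher and 0 lower. Of 12 astrocyte markers 3 were higher and 6 lower, with Gfap at a difference of 1.73 (SE 0.04), and of 11 oligodendrocyte markers 3 were higher, 1 was lower and 7 were not called. RMA gives every probeset a value above 0, so none of these markers was at 0. Their part in the lower values of the glutamatergic genes was not tested.

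Among markers of brain regions, lower calls were made in 6 of 7 for the striatum (median -0.27), 4 of 8 for the olfactory bulb (-0.23), 4 of 7 for the cortex (-0.17), 5 of 9 for the cerebellum (-0.15), 3 of 8 for the hippocampus (-0.12) and 3 of 8 for thalamus and midbrain (-0.02), with 0 higher calls in these lists. The share for hippocampus and for thalamus and midbrain was 37.5% each, against 22.4% of all genes and 33.3% of genes at or above the median level. Both lists hold genes below that level, namely Dsp, Lct, Spink8 and Iyd for hippocampus and Gbx2 for thalamus and midbrain. Of the 9 cerebellar markers, Fat2 (-0.32), Cbln1 (-0.25), Pcp2 (-0.20), Cbln3 (-0.15) and Calb1 (-0.11) were lower, and Gabra6 (-0.16), Car8 (-0.10), Zic1 (-0.09) and Neurod1 (-0.09) did not pass, beside -0.36 for Grin2c and -0.30 for Grm4. The olfactory bulb markers had mean deviations of -0.273 to -0.182 in Aldara-treated brains and -0.180 to 0.211 in control brains. Control replicates 3 and 5 were the highest brains in these markers and in Grm8. Whether the region make-up of the dissected brains had a part in the differences of Grin2c, Grm4, Grm8, Slc17a7 and Slc17a6 was not tested.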

How the data were processed

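The deposited values were log2 expression values, which the authors made from 10 arrays, 1 per mouse, with RMA in GeneSpring GX (background correction, quantile normalisation and probeset summary), and the library file, annotation release and version are not given in the sources used here. Scanner values were not used here, so detection above background could not be judged. Of 28856 probesets, 21789 had 1 gene symbol, 1621 several and 5446 none, and the 23410 with a symbol were tested.

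Groups of 5 were compared with limma 3.58.1 (lmFit, eBayes) in R 4.3.3 with no covariate. The methods' unpaired test was run as an alternative. Counts of genes use 1 probeset per gene, and Entrez identifiers gave the same symbol for 33 of 33 genes of the list. Pairs of genes were compared with an exact permutation test (SciPy 1.17.1). The members, gene lists, pairs and tests were chosen with earlier results of these data known. All 10 values are given for up to 3 genes of each role with the smallest p, for the vesicular transporters and for pairs that passed. Grm7 and Slc1a2 were added after their values were seen, and of the other lists up to 4 genes are named, with further markers chosen after their values were seen. On simulated arrays with 200 of 23410 probesets changed, the test recovered 66% of log2 changes of 0.2 and 94% of those of 0.4, with 11 false calls among 191. The simulated noise was independent between probesets, and a far smaller share of probesets changed than was called here. These rates therefore need not hold for the real arrays. The number of arrays limits the precision.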

Additional observations from a re-analysis of the deposited data

Results flagged for a closer look

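In 66 groups of 5 values (33 genes in Aldara-treated and in control brains), 8 held a brain far from the others, where chance gives about 3.3. Grm7 was at 9.54 in control replicate 3, against 10.24 to 10.34 in the other control brains, and this brain decided whether the gene was called. Aldara replicate 5 was low for Grm3, at 11.19 against 11.33 to 11.36 in the other treated brains, and for Grm6, at 6.74 against 6.87 to 6.91. Control replicate 2 was high for Grik1, at 8.45 against 8.31 to 8.34, and low for Grik3, at 9.909 against 10.002 to 10.013. Grik2 was at 10.87 in Aldara replicate 3, against 10.93 to 10.95. Gria1 was at 11.71 in control replicate 5, against 11.63 to 11.64. Slc17a8 was at 7.04 in control replicate 1, against 7.29 to 7.36.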

How the results depend on the processing

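Of the values for single genes and pairs under the other settings named below and in the methods, leaving aside the pan-neuronal scaling, 701 kept their direction and side of the threshold, 80 kept the direction and no longer passed, 5 passed only there and 7 turned direction. The 701 include genes such as Grm6 that passed neither there nor in the main fit. They also include pair differences that a constant added to an array cannot change. Some settings alter only the test and leave log2 differences as they were. The other settings, without the pan-neuronal scaling, left 22 to 30 of the genes lower and 0 higher. The count was 24 with the methods' test, 28 with array weights or with an intensity trend, and 25 to 27 when 1 array was left out. It was 29 with quantile normalisation, all probesets, probesets of 1 symbol or the mean of a gene's probesets. When dim probesets were left out, 27 of the 29 genes kept were lower. Centring arrays on a common median gave medians of -0.20 for AMPA, -0.26 for NMDA, -0.22 for kainate and -0.25 for metabotropic receptors. Adding a constant to the Aldara arrays, so that the median probeset did not differ, gave -0.11, -0.17, -0.13 and -0.16 in that order, with Grm7 at 0.0018 and Slc17a6 at 0.0344. Quantile normalisation gave -0.20 for kainate receptors, and leaving out dim probesets -0.24 for NMDA receptors. Scaling to the pan-neuronal markers, chosen after the data were seen, left 8 genes lower (8 without overlap) and 1 higher, with medians of -0.026, -0.082, -0.0417 and -0.0775, and turned Gria2 (0.0225), Gria3 (0.0066), Grin2d (0.0287), Grin3b (0.0032), Grik2 (0.0345), Grm6 (0.0712), Grm7 (0.0867), Slc17a6 (0.12) and Cacng2 (0.0096). The cause was not tested, apart from the shift of all genes that this scaling makes.

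With 1 array left out, Grm7 ranged from -0.19 to 0.0076 and Slc17a6 from -0.0185 to 0.0152, and the number of gene pairs that passed ranged from 0 to 3, against 4 with all arrays, since fewer arrays allow only a larger smallest p. The labels do not say whether equal replicate numbers pair the samples. Same-numbered brains correlated at -0.11 to 0.25 in their deviations from the group means, and 2 of 5 correlated best with their own number. With so few brains these values cannot settle whether the numbers share a source. With the replicate number as a replicate block, 26 genes were lower, and Grik2, Grin3b and Slc17a8 no longer passed. Without background values for the probesets, the dim genes Grm6, Grin2d, Grin3b and Slc17a8 allow the least.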
